A study of Mus musculus with 96 samples.

Results

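H3K27me3 promoter peaks of neurons are the regions described here. They are the peaks of the H3K27me3 table of NeuN+ nuclei whose deposited annotation begins with the word Promoter. There were 1095 such peaks among the 4132 H3K27me3 peaks of NeuN+ nuclei (26.5%) and among the 22815 peaks of all 6 tables of the series. The nuclei came from the hippocampus of 6 months old male C57BL/6N mice of 4 genotypes, namely wild type (WT), Mutyh-/-, Ogg1-/- and a double knockout (DKO) that lacks both genes. Both genes encode glycosylases of base excision repair, which act on DNA damaged by oxidation. Hippocampi of 5 animals of 1 genotype were pooled for a sample, and nuclei were sorted by fluorescence on NeuN, a neuronal nuclear protein, so NeuN+ nuclei hold excitatory neurons and interneurons together. Each genotype had 3 replicates, which gave 12 H3K27me3 libraries of NeuN+ nuclei. H3K4me3 and Suz12 of the same nuclei, and H3K27me3 of NeuN- (mostly glial) nuclei, served as further readouts.

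H3K27me3 is trimethylation of lysine 27 of histone H3. It is laid down by Polycomb repressive complex 2 (PRC2), of which Suz12 is a core subunit, and it marks genes that are kept silent. H3K4me3 marks the start sites of active genes, and starts that carry both marks are called bivalent. PRC2 in mammals is found mainly at CpG islands, stretches rich in the dinucleotide CpG, and its best known targets are regulators of embryonic development that differentiated cells such as neurons keep off.

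Promoter peaks and the remaining peaks differed in base composition. The 401-bp windows of the promoter peaks had a GC content of 55.3% ± 9.97 (SD, n = 1095 peaks), against 46.4% ± 6.70 (SD, n = 3037 peaks) in the other windows. Their CpG observed/expected ratio, which is the number of CpG set against the number that the C and G content would give at random, was 0.47 ± 0.277 (SD) against 0.23 ± 0.179 (SD). Within the promoter peaks it spanned a wide range, from 0.125 at the 10th percentile to 0.859 at the 90th percentile. Stretches of 300 bases from the centres of 4 such windows show both ends of that range. They are given on the forward strand of GRCm38 in lower case, with every CpG in capitals. The first pair is CpG-dense and lies at genes of homeodomain transcription factors that also overlapped a Suz12 and an H3K4me3 peak. The other pair is CpG-poor. Its window at 4931408C20Rik overlapped a Suz12, an H3K4me3 and a NeuN- H3K27me3 peak, and that at Hoxa2 overlapped none of these. Each pair holds the highest WT values of its kind, repeats and the pile-up loci described later left out. For the first pair the kind is limited to homeodomain genes with both overlaps. CpG-dense members at other genes had higher WT values, such as Gata6 with a mean of 20.9 normalized reads.
Onecut3, chr10:80495403-80495702: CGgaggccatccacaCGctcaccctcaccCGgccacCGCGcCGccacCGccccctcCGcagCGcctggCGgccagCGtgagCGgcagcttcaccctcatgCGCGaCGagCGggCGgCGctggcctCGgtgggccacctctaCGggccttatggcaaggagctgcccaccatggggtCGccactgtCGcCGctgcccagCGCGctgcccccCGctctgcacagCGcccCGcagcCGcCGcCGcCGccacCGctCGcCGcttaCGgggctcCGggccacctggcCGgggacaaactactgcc
Gbx1, chr5:24526513-24526812: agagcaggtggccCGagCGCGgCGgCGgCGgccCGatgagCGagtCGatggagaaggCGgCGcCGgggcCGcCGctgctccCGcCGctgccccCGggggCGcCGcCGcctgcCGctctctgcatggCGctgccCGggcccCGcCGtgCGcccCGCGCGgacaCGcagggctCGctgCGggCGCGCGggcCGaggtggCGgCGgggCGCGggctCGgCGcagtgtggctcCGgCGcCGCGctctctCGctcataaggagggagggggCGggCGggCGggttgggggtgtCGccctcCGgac
4931408C20Rik, chr1:26687325-26687624: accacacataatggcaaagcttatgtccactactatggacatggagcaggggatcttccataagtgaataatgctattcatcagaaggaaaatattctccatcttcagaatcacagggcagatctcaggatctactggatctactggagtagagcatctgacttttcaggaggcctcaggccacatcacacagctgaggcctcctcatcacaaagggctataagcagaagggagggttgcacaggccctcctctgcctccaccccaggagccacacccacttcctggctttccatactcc
Hoxa2, chr6:52214896-52215195: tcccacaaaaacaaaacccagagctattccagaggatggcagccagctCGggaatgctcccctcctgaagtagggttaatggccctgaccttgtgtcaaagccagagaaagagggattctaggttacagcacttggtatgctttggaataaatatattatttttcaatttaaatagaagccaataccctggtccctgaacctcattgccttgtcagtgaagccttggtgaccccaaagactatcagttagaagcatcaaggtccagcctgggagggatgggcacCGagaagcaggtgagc

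The stretch of Onecut3 held 38 CpG and that of Gbx1 held 52, against 2 in that of Hoxa2 and 0 in that of 4931408C20Rik. The WT mean was 19.8 ± 3.95 normalized reads (SD, n = 3) at Onecut3, 16.8 ± 5.06 at Gbx1, 24.9 ± 2.89 at 4931408C20Rik and 18.3 ± 7.04 at Hoxa2. Normalized reads are reads in the 401-bp counting window divided by a factor for each library, so a value of 1 is close to 1 read. All 4 means lay above 14.1, the 90th percentile over members. The window of Hoxa2 lay at -1507 bp from the start of its gene and that of 4931408C20Rik covered the start. At 4931408C20Rik the knockout libraries were uneven, with 0, 7.74 and 26.98 in Mutyh-/-, 37.7, 22.0 and 17.5 in Ogg1-/- and 19.7, 0 and 27.3 in DKO.

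Short sequence motifs followed the base composition. The GC box GGGCGG, read on both strands, was present in 35.0% of the promoter windows and in 7.67% of the other H3K27me3 windows of the same length. It was in 80.1% of the promoter windows with a CpG ratio over 0.8 and in 5.88% of those with a ratio of up to 0.2. The TATA box letters TATAAA were rarer in promoter windows, with 9.04% against 22.4%, and so was CCAAT, with 36.7% against 45.1%. The E-box CACGTG was in 7.21% of promoter windows and 5.60% of other windows. These are matches of letters and say nothing of bound factors.

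Of the 1095 promoter peaks, 819 (74.8%) were annotated within 1 kb of a transcription start and 276 between 1 and 2 kb. The median distance was 409 bp and the largest 1996 bp. The window covered the start in 251 peaks, lay downstream of it in 550 and upstream in 294. The peaks belonged to 1047 gene symbols, and 1 peak had no symbol. Among these genes 1004 had 1 promoter peak, 39 had 2 and 4 had 3. Their gene identifiers covered 4.37% of the 21900 protein-coding genes of RefSeq, which is the background for the lists of genes given later. Only 4 of the peaks were on the X chromosome (0.365%, against 0.23% of the other peaks). Repeat peaks, with at least 50% of bases masked as repeats, made up 3.20% of the promoter peaks and 12.7% of the others.

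The libraries were shallow. Reads in peaks ranged from 23794 to 52344 per library, and the median promoter peak held 3 to 13 reads. Between 3.20% and 21.3% of the promoter peaks of a library had no read. With so few reads a change at a single peak was detectable only if large, and the median standard error of a log2 fold change was 0.90. Replicate 1 of each knockout stood apart. In these 3 libraries repeat peaks took 56.9% (Mutyh-/-), 26.6% (Ogg1-/-) and 37.6% (DKO) of the reads, against 6.68% to 17.3% in the other 9 libraries. The median promoter value was 3.04, 3.96 and 4.37 there, against 6.27 to 10.4 in the others. Values of the comparisons are therefore also given without replicate 1 of all genotypes, an alternative chosen after seeing the data. Of marker genes, 7 of 9 neuronal marker genes (Rbfox3, Camk2a, Snap25, Syt1, Slc17a7, Prox1 and Gad1) had an H3K4me3 promoter peak in NeuN+ nuclei. Of the glial and vascular markers, Slc1a3 (astrocytes) and Mbp (oligodendrocytes) had one in NeuN+ nuclei. The NeuN- H3K4me3 table had none at any marker gene, neuronal (0 of 9), astrocyte (0 of 5), oligodendrocyte (0 of 6), microglia (0 of 5) or vascular (0 of 4), so it gives no check of the sort.

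Promoter peaks carried more H3K27me3 than the other peaks of the same libraries. In WT the median promoter peak had 7.67, 6.64 and 8.62 normalized reads in the 3 replicates, and the median of the other peaks was 4.38, 4.43 and 5.17. The median on the log2(value + 1) scale was higher in promoter peaks in 12 of 12 libraries, by 0.57 ± 0.162 (SD, n = 12). The exact two-sided sign-flip permutation p was 0.000488, the smallest that 12 libraries allow, and 0.000684 after adjustment over 7 such comparisons of levels. Per genotype, the promoter medians were 3.04, 6.64 and 8.99 in Mutyh-/-, 3.96, 6.27 and 10.3 in Ogg1-/- and 4.37, 6.79 and 10.4 in DKO. The genotypes overlapped. Among members the WT mean ran from 2.86 at the 10th percentile to 14.1 at the 90th percentile, with a median of 7.77.

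**Figure D1:**
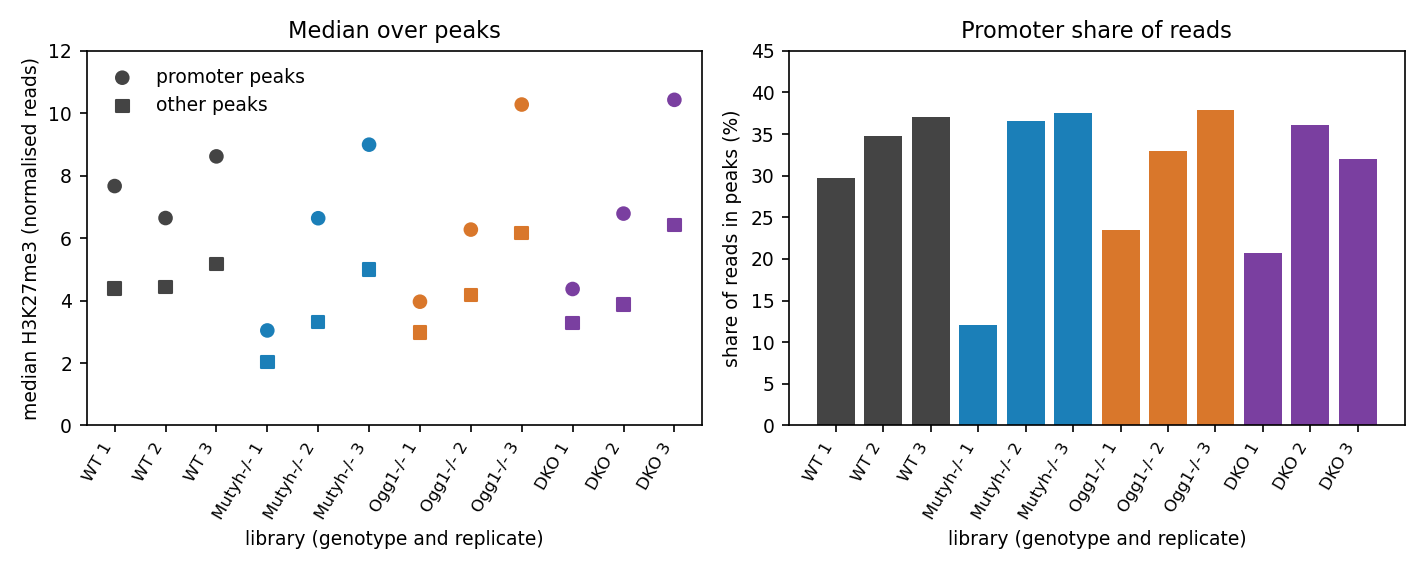
Left, the median H3K27me3 (normalized reads) over promoter peaks (circles) and other peaks (squares) in each of the 12 NeuN+ libraries. Right, the percentage of a library's reads in peaks that lay in promoter peaks. Promoter peaks have the higher median in each library, and replicate 1 of Mutyh-/- has the lowest share, 12.1%.

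H3K27me3 rose along the CpG classes. The median of the WT means was 5.04 normalized reads in the 238 promoter peaks with a CpG ratio of up to 0.2, 6.48 in the 266 peaks from 0.2 to 0.4 and 8.43 in the 233 peaks from 0.4 to 0.6. It was 9.63 in the 212 peaks from 0.6 to 0.8 and 11.8 in the 146 peaks over 0.8. The top class exceeded the bottom class in 12 of 12 libraries, by 1.05 ± 0.269 (SD) on the log2 scale (exact permutation p = 0.000488, adjusted p = 0.000684). The median GC content of the classes rose with them from 48.4% to 69.6%, and its part in the difference was not tested. The other H3K27me3 peaks were of the CpG-poor kind: 50.4% of them were in the bottom class and 1.28% in the top class, where 13.3% of the promoter peaks were.

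Suz12 and H3K4me3 were found at the CpG-dense promoter peaks. A Suz12 peak of NeuN+ nuclei overlapped 39.7% of the promoter peaks over 0.8 and 19.8% of those from 0.6 to 0.8, but 1.26% to 2.58% in the 3 lower classes. H3K4me3 gave a like picture, with 39.0% and 24.5% in the upper classes and 0.84% to 7.30% in the lower ones. Over all classes, 114 promoter peaks (10.4%) overlapped a Suz12 peak and 131 (12.0%) an H3K4me3 peak by at least 1 bp. In the other H3K27me3 peaks these shares were 2.57% and 2.27%. Since 401 bp is a counting window and not the extent of a region, overlap was also counted within 1000 bp, which gave 21.9% for Suz12 and 25.02% for H3K4me3 at promoter peaks against 3.75% and 2.996% at other peaks.

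**Figure D2:**
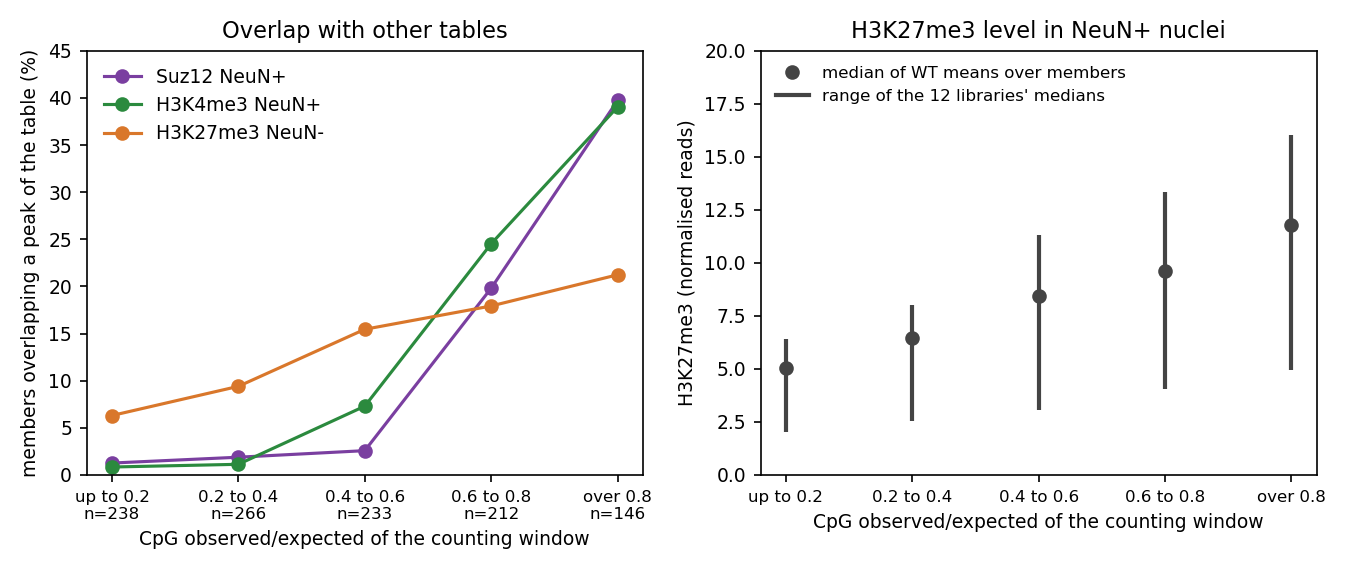
Left, the percentage of promoter peaks in 5 classes of CpG observed/expected ratio that overlapped a peak of Suz12 NeuN+, H3K4me3 NeuN+ or H3K27me3 NeuN-. Right, H3K27me3 of the same classes as the median of WT means (points) with the range of the 12 libraries' medians (lines). Overlap with Suz12 and H3K4me3 rises from about 1% in the bottom class to 39.7% and 39.0% in the top class.

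A group of 50 promoter peaks overlapped both Suz12 and H3K4me3, 64 overlapped Suz12 only, 81 H3K4me3 only and 900 (82.2%) neither. The median CpG ratio of these groups was 0.796, 0.824, 0.774 and 0.367. Their median WT means were 11.9, 13.1, 9.24 and 7.01 normalized reads. Peaks with Suz12 had more H3K27me3 than those without in 12 of 12 libraries, by 0.74 ± 0.136 (SD) on the log2 scale (exact permutation p = 0.000488, adjusted p = 0.000684). The H3K4me3 promoter peaks that overlapped one of these regions were weak for their table. Their median per library was 8.21 to 20.0 normalized reads, against 15.8 to 34.6 at the 11640 H3K4me3 promoter peaks without such an overlap. The difference was below 0 in 12 of 12 libraries, with a mean of -0.86 ± 0.134 (SD) on the log2 scale (exact permutation p = 0.000488, adjusted p = 0.000684). Suz12 promoter peaks that overlapped a member were higher than the other Suz12 promoter peaks in 8 of 12 libraries, by 0.12 ± 0.134 (SD, exact permutation p = 0.00781, adjusted p = 0.00781). Their library medians ran from 2.46 to 18.8 against 1.64 to 17.8, so the ranges were nearly the same.

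Many of the same genes were marked in glial nuclei. The NeuN- table had an H3K27me3 promoter peak at 786 genes, of which 360 also had one in NeuN+ nuclei, which is 34.4% of the neuronal and 45.8% of the glial genes. Suz12 promoter peaks of NeuN+ nuclei were at 409 genes, and 275 of these (67.2%) had a neuronal H3K27me3 promoter peak. By position, 145 promoter peaks (13.2%) overlapped a NeuN- H3K27me3 peak, against 3.42% of the other peaks. These 145 had more H3K27me3 in NeuN+ nuclei than the remaining 950, by 0.42 ± 0.141 (SD) on the log2 scale, in 12 of 12 libraries (exact permutation p = 0.000488, adjusted p = 0.000684). In the NeuN- table itself, promoter peaks with such an overlap were higher in 9 of 12 libraries, by 0.24 ± 0.172 (SD, exact permutation p = 0.00391, adjusted p = 0.00456). Overlap with the sparse NeuN- Suz12 and H3K4me3 tables was low, at 1.00% and 2.28%.

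Developmental transcription factors were the largest of the gene lists among the members. Of 216 such genes, 115 (53.2%) had a neuronal H3K27me3 promoter peak, 106 (49.1%) one in glial nuclei and 126 (58.3%) a Suz12 promoter peak in neurons. The highest WT values were at Tbx4, a T-box factor of limb development, with 29.6, 22.1 and 20.7 normalized reads in the 3 libraries. Nkx6-1, a homeodomain factor of spinal cord and pancreas, had 11.0, 23.2 and 30.2. Gata6, a zinc finger factor of endoderm and heart, had 17.5, 21.04 and 24.1. These 3 genes are among the strongest of all members, since the 90th percentile lay at 14.1. Of families chosen after their values were seen, Gata genes had a peak at 4 of 6 protein-coding members, LIM homeobox genes at 5 of 8, Pax genes at 5 of 9, T-box genes at 7 of 15, NK homeobox genes at 6 of 14, Sox genes at 6 of 19 and forkhead genes at 10 of 44.

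Hox genes, the regulators of body axis identity, are classical Polycomb targets. Of 39 Hox genes 3 (7.69%, against 4.37% of all protein-coding genes) had an H3K27me3 promoter peak in NeuN+ nuclei, namely Hoxa2 (18.3 ± 7.04 normalized reads in WT), Hoxb6 (13.9 ± 5.29) and Hoxd8 (13.5 ± 10.9; SD, n = 3 each). With peaks of every annotation, 6 of the 39 genes were named. These counts rest on 401-bp counting windows annotated to the closest gene, not on the extent of the regions. Hox genes lie in clusters, so a Hox gene without a named peak is not shown to lack H3K27me3. Suz12 promoter peaks were at 16 of the 39 (41.0%). H3K4me3 promoter peaks were at 0 of the 39.

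Among signalling genes of development, Wnt ligands and regulators had a member at 16 of 56 genes (28.6%), led by Sfrp5, a secreted Wnt antagonist, with a WT mean of 17.0 ± 4.41 normalized reads (SD, n = 3). Rspo4, a Wnt potentiator, had 17.0 ± 3.18 and Ror2, a Wnt receptor, 12.3 ± 2.03. Genes of BMP, FGF and Hedgehog signalling had a member at 16 of 51 (31.4%), with the ligands Fgf4 at 19.7 ± 2.45, Ihh at 18.1 ± 0.454 and Fgf3 at 16.3 ± 5.88. An H3K4me3 promoter peak in neurons was found at 71.4% and 66.7% of these lists, against 25.5% of the developmental transcription factors. Semaphorins, plexins and other axon guidance genes had a member at 6 of 71 (8.45%), with Ntn1 (9.76 ± 2.16), Epha2 (7.93 ± 2.10) and Sema3f (5.30 ± 2.80) the highest. Of these genes 84.5% had an H3K4me3 promoter peak. In NeuN- nuclei an H3K27me3 promoter peak was found at 37.5% of the Wnt list. The share was 29.4% for BMP, FGF and Hedgehog signalling and 15.5% for axon guidance.

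Among neuronal genes, those that set transmitter type or mark interneurons had a member at 18 of 58 (31.0%). The highest were Slc6a2, the noradrenaline transporter, at 15.1 ± 10.7 normalized reads in WT, Fev, a factor of serotonin neurons, at 14.3 ± 6.92 and Sst, the interneuron peptide somatostatin, at 13.2 ± 3.93 (SD, n = 3 each). Gad1 and Gad2, which encode the enzymes that make GABA, were members too, and Gad1 also had an H3K4me3 promoter peak in the same nuclei. NeuN+ nuclei are a mix of cells, and whether both marks lay on the same nuclei was not tested. The glutamate receptor and postsynaptic genes had a member at 3 of 47 (6.38%), namely Grin2d (14.1 ± 0.70), Grm6 (9.25 ± 5.31) and Grik1 (3.77 ± 3.49). Hippocampal excitatory neuron genes had one at 2 of 28, Prox1, a factor of dentate granule cells, at 10.4 ± 4.52 and Fezf2, a factor of deep cortical neurons, at 7.16 ± 6.36. H3K4me3 promoter peaks were at 95.7% and 96.4% of these last lists. In NeuN- nuclei an H3K27me3 promoter peak was found at 23 of the 58 transmitter and interneuron genes (39.7%), 13 of them also with a member. There it was found at 17.0% of the glutamate receptor and postsynaptic and 21.4% of the excitatory neuron genes. These shares were not lower than those in NeuN+ nuclei.

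Genes of other cell types of the brain were marked unevenly. Vascular genes had a member at 9 of 22 (40.9%), with Flt1, a VEGF receptor of endothelium, at 20.2 ± 1.57 normalized reads, Foxc1 at 19.9 ± 6.31 and Tbx18 at 18.1 ± 2.42 in WT (SD, n = 3). Foxc1 and Tbx18, factors of pericytes and other mesenchymal cells, are also on the list of developmental transcription factors, as is the vascular member Sox17. Of the members given below, Olig1 is on that list too, and Fgfr3 is on the list of BMP, FGF and Hedgehog signalling. Oligodendrocyte lineage genes had one at 5 of 18 (27.8%), among them Olig2 at 14.0 ± 2.63, Olig1 at 10.6 ± 2.14 and Sox10 at 9.85 ± 2.02, all transcription factors of that lineage. Astrocyte genes had one at 2 of 14, Gjb6, a connexin, at 6.72 ± 5.64 and Fgfr3, an FGF receptor, with 6.57, 12.2 and 23.3 in the 3 WT libraries, and microglia genes at 1 of 16, C1qc, with 1.10, 6.64 and 0.862 in the 3 WT libraries. In NeuN- nuclei an H3K27me3 promoter peak was found at 8 of the 22 vascular genes (36.4%), 6 of them also with a member. There it was found at 1 of 18 oligodendrocyte lineage, 1 of 14 astrocyte and 0 of 16 microglia genes. The NeuN- H3K27me3 table held 1698 peaks against 4132 in NeuN+ nuclei. Repeat peaks took 24.4% to 82.6% of the reads of its libraries, so a missing peak there does not show that the mark was absent. Of 60 cytosolic ribosomal protein genes, 0 had a member, while 78.3% had an H3K4me3 promoter peak. Of 13 genes that the study discusses, Oaf (10.2 ± 4.66) and Wnt6 (5.48 ± 1.17) were members.

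**Figure D3:**
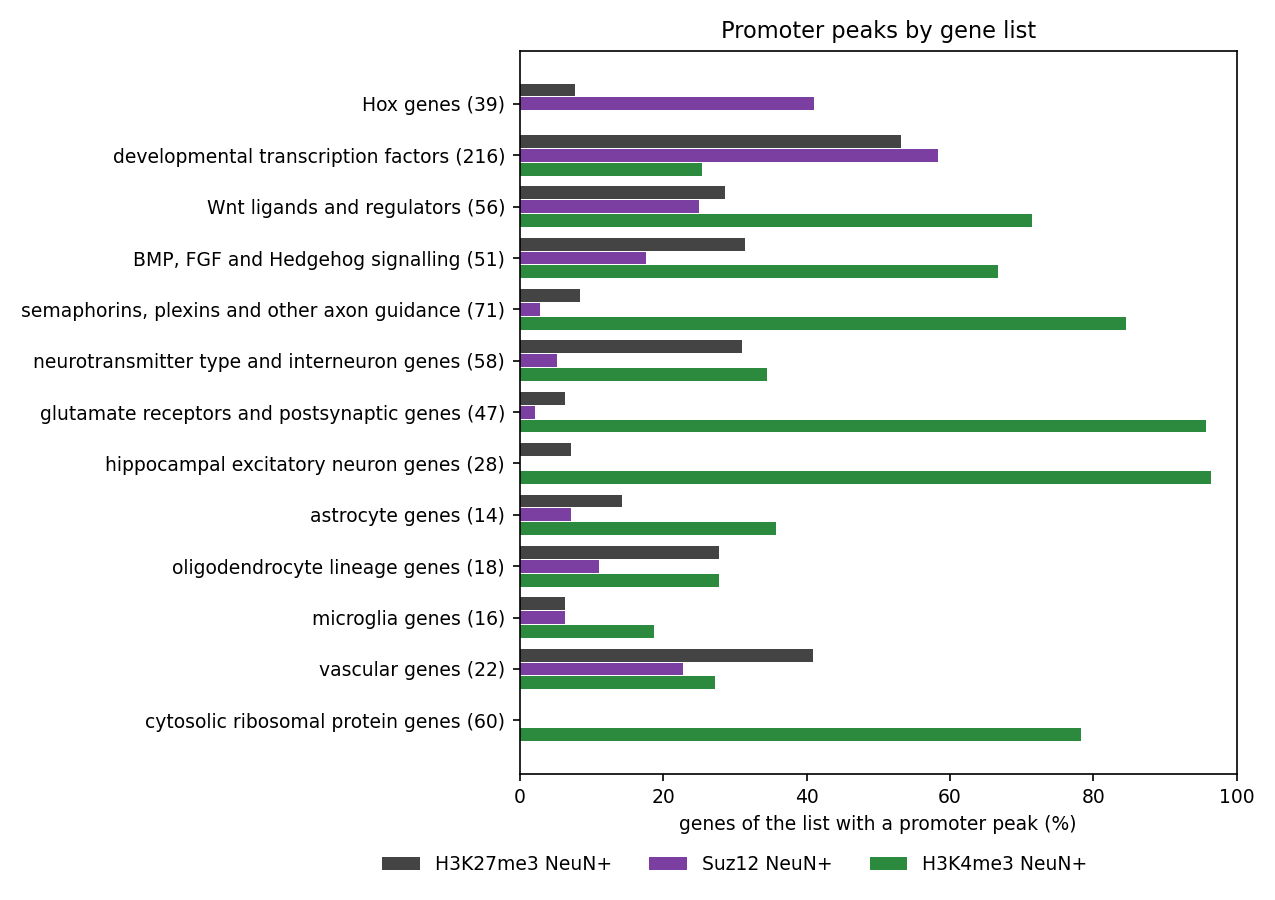
Percentage of the genes of each list (number of genes in brackets) with a promoter peak of H3K27me3, Suz12 or H3K4me3 in NeuN+ nuclei. Developmental transcription factors have the most H3K27me3 promoter peaks (53.2%) and few H3K4me3 promoter peaks (25.5%), while glutamate receptor, excitatory neuron and ribosomal genes show the opposite.

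Some CpG-poor promoter peaks lay at families of genes that were chosen after their values were seen. Olfactory receptors had a member at 13 of 1110 genes (1.17%), vomeronasal receptors at 5 of 355 (1.41%), pregnancy-specific glycoproteins at 6 of 13 (46.2%), Nlrp genes at 3 of 18 (16.7%) and beta-defensins at 2 of 42 (4.76%), where 4.37% of all protein-coding genes had one. The families held 14, 6, 6, 4 and 2 peaks. Their median CpG ratios lay between 0.0402 and 0.0734, and 0 of these peaks overlapped a Suz12, H3K4me3 or NeuN- H3K27me3 peak. Their median WT means were 4.78, 2.76, 3.99, 4.71 and 2.85 normalized reads, below the median of 7.77 over all members. Near-identical copies lie within these families, so reads may have been split or placed at random between them.

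Pile-up loci were 4 members with more than 10 times the median WT mean. Rn45s, the 45S precursor of ribosomal RNA, had 1032, 649 and 840 normalized reads in WT, and Aida had 229, 153 and 175. Zc3h7a had 208, 97.4 and 151, and 1 of 3 peaks of Sfi1 had 154, 55.4 and 53.4. The next value among members was 24.9, at 4931408C20Rik, which overlapped a Suz12, a NeuN- H3K27me3 and an H3K4me3 peak. All 4 pile-up loci also overlapped a Suz12 peak and a NeuN- H3K27me3 peak, and 3 of them an H3K4me3 peak. After them and 4931408C20Rik, the members with the highest WT means were Tbx4 (24.1), Wdr86 (23.2 ± 3.18), Lox (21.8 ± 8.74), Nkx6-1 (21.5 ± 9.73) and Piezo2, a mechanosensitive ion channel, at 21.3 ± 6.13 (SD, n = 3).

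Several genes had peaks at more than 1 start. Bnc2, a zinc finger factor, had 3 members with CpG ratios of 0.361, 0.967 and 1.01 and WT means of 6.28, 9.24 and 20.1 normalized reads. Kcp, a BMP regulator, had 3 with WT means of 7.08, 9.84 and 13.4, and Mtus1 3 with 1.52, 1.72 and 9.95. In Bnc2, Kcp and Mtus1 alike the highest of the 3 values was at the peak with the highest CpG ratio. Sfi1 had the pile-up peak named above and 2 more, and 4930447C04Rik had 2, of which 1 was a repeat peak.

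Whether loss of a glycosylase went with altered H3K27me3 at promoters was tested against WT in each knockout. Peaks with an unadjusted limma p under 0.05 and a log2 fold change beyond 0.5 in either direction are called differentially enriched regions (DERs), after the study's definition. Among the 1095 promoter peaks there were 41 DERs in Mutyh-/-, 35 in Ogg1-/- and 31 in DKO, which is 3.74%, 3.20% and 2.83%. Over all 4132 peaks the share was 3.8%, 3.73% and 3.1%, so promoter peaks were called at about the rate of the table. No promoter peak passed adjustment by the Benjamini-Hochberg method in limma, where the smallest adjusted p was 0.999, 0.98 and 0.998. edgeR and DESeq2 also gave 0, with 38, 32 and 17 (edgeR) and 43, 39 and 24 (DESeq2) promoter peaks at an unadjusted p under 0.05. The single calls below are therefore given as values, and each H3K27me3 call of NeuN+ nuclei had an adjusted limma p of at least 0.98.

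The calls were uneven in direction. In Mutyh-/- 37 of the promoter DERs were lower and 4 higher (3.38% and 0.365% of the members, against 2.78% and 1.02% of all peaks). In Ogg1-/- 28 were lower and 7 higher (2.56% and 0.639%, against 2.2% and 1.52%), and in DKO 21 were lower and 10 higher (1.92% and 0.913%, against 1.43% and 1.67%). This split depended on scaling and on replicate 1. With edgeR and TMM factors 29.7%, 40.6% and 41.2% of the DERs were higher, in place of 9.76%, 20.0% and 32.3%. With TMM factors in limma 22.2%, 26.2% and 26.1% were higher. Without replicate 1 of all genotypes there were 56, 42 and 46 DERs, of which 42.9%, 50.0% and 58.7% were higher. The 3 knockouts share the WT libraries, so their calls are not independent.

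The median log2 fold change of the promoter peaks was -0.30 in Mutyh-/-, -0.25 in Ogg1-/- and -0.09 in DKO, and that of all peaks -0.21, -0.11 and -0.01. TMM factors moved the median of all peaks in Mutyh-/- from -0.21 to -0.08. Without replicate 1 the medians of the promoter peaks were 0.00, 0.01 and 0.13, and those of all peaks 0.02, 0.11 and 0.20. The median of the promoter peaks lay below that of all peaks in each of these fits, and its sign against WT depended on the first libraries.

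**Figure D4:**
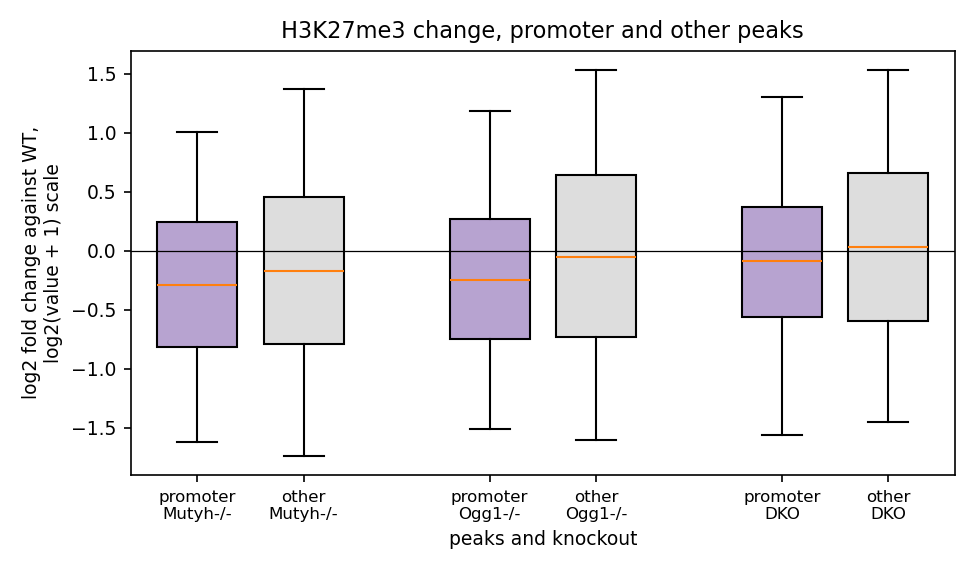
Log2 fold change of H3K27me3 against WT, on the log2(value + 1) scale, for promoter and other peaks in each knockout. Boxes span the 25th to 75th percentile over peaks with the median as a line, and whiskers the 5th to 95th percentile. The medians of promoter peaks are -0.30, -0.25 and -0.09, and the boxes of both kinds of peak overlap almost fully.

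Within libraries the contrast of promoter and other peaks gave no difference past the replicate spread. The mean log2(value + 1) of promoter peaks minus that of the other peaks was 0.56, 0.67 and 0.73 in WT and 0.24, 0.63 and 0.71 in Mutyh-/-. It was 0.29, 0.44 and 0.73 in Ogg1-/- and 0.37, 0.59 and 0.57 in DKO. The lowest value of each knockout was its replicate 1, and every knockout overlapped WT. The difference from WT was -0.13 in Mutyh-/- (exact permutation p = 0.6), -0.17 in Ogg1-/- (p = 0.3, exact) and -0.14 in DKO (p = 0.3, exact), with adjusted exact p of 0.6, 0.45 and 0.45. The smallest p that 3 against 3 libraries can give is 0.1. Promoter peaks took 29.7%, 34.8% and 37.0% of the reads in WT. The shares were 12.1%, 36.6% and 37.5% in Mutyh-/-, 23.4%, 32.9% and 37.9% in Ogg1-/- and 20.7%, 36.1% and 32.0% in DKO. The exact permutation p was 0.9, 0.7 and 0.6, and 0.9 for each after adjustment over the 3 knockouts. Without replicate 1 of all genotypes the difference in share for Mutyh-/- turned from -5.09 to 1.18 percentage points.

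Complete separation of the 3 knockout from the 3 WT libraries was found at 103 promoter peaks in Mutyh-/- (9.41%), 91 in Ogg1-/- (8.31%) and 92 in DKO (8.40%). Over all peaks of the table the shares were 9.15%, 9.17% and 9.08%. Among the DERs, 28, 21 and 18 were separated in this way, of which 1, 2 and 7 were higher. The peaks with the smallest p among these are described next, in the order of the knockouts.

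In Mutyh-/- the peak with the smallest p was at Lox, which encodes lysyl oxidase, an enzyme that crosslinks collagen and elastin. It had 31.8, 15.5 and 18.1 normalized reads in WT and 0, 8.85 and 6.99 in Mutyh-/-, against 13.9, 8.36 and 24.7 in Ogg1-/- and 16.4, 13.6 and 13.6 in DKO. The Mutyh-/- libraries were all below WT, and the log2 fold change was -2.34 ± 0.65 (SE). En2, a homeodomain factor of midbrain and cerebellum, had 14.2, 14.4 and 14.6 in WT and 0, 6.64 and 5.99 in Mutyh-/- (log2 fold change -2.03 ± 0.74, SE). Hs3st2, a heparan sulfate sulfotransferase of neurons, had 13.1, 6.64 and 5.17 in WT and 0, 1.11 and 0 in Mutyh-/- (-2.77 ± 0.99). Without replicate 1 of all genotypes the log2 fold changes of En2 (-1.09) and Hs3st2 (-2.24) were no longer called, nor was that of Lox, which was -1.0003, and En2 was not called without Mutyh-/- replicate 1 alone (-1.08). 4921513I03Rik had no read in the 3 Mutyh-/- libraries and 5.48, 7.75 and 12.9 in WT. Its WT mean was 2.79 times a floor of 3 reads per library. Such a ratio of means takes no account of the WT spread. 9530082P21Rik had none in Mutyh-/- either and 14.2, 4.43 and 4.31 in WT. Its WT mean was 2.46 times the same floor and rested largely on 1 library. Its call was also lost without replicate 1 of all genotypes (-2.42). The 1 higher peak was at Gng11, a G protein gamma subunit, with 0, 2.21 and 1.72 in WT and 6.09, 11.1 and 5.99 in Mutyh-/- (2.03 ± 0.97). It was not called without WT replicate 1 (1.51), Mutyh-/- replicate 1 (2.16) or Mutyh-/- replicate 2 (1.77). Of the members with the highest WT values, Wdr86 (26.3, 19.9 and 23.3 in WT against 4.06, 11.1 and 9.99) and Piezo2 (14.2, 25.5 and 24.1 against 9.13, 3.32 and 11.0) were also called lower in Mutyh-/-, and both had been chosen for their WT level.

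In Ogg1-/- the peak with the smallest p among the lower ones covered a start of Prox1, the homeodomain factor that keeps dentate granule cell identity. It had 5.48, 14.4 and 11.2 normalized reads in WT and none in the 3 Ogg1-/- libraries, and its WT mean was 3.38 times a floor of 3 reads per library. In Mutyh-/- it had 0, 6.64 and 7.99 and in DKO 3.28, 9.69 and 10.4, so the DKO libraries overlapped WT. The fitted log2 fold change was -3.42 ± 1.02 in Ogg1-/- (SE) and -0.41 ± 1.02 in DKO, which was not called, and the call for Ogg1-/- was kept under each of the 17 alternatives. The H3K4me3 peak that overlapped this window had 7.72, 8.78 and 8.62 in WT and 13.1, 6.15 and 19.2 in Ogg1-/-, and was not called. Tubb6, a beta-tubulin, had 21.9, 17.7 and 19.8 in WT and 0, 6.27 and 14.4 in Ogg1-/- (-2.11 ± 0.76). Nt5dc2 had 13.1, 7.75 and 12.1 in WT and 0, 2.09 and 3.08 (-2.33 ± 0.86), and Mybl2, a Myb factor of cycling cells, had 7.67, 11.1 and 6.03 in WT and 0, 0 and 4.11 (-2.39 ± 0.98). The calls at Tubb6 (-0.90), Nt5dc2 (-1.59) and Mybl2 (-2.03) were lost without replicate 1 of all genotypes. Without Ogg1-/- replicate 1 alone Tubb6 (-0.97) and Mybl2 were not called, and Mybl2 was also lost without WT replicate 2 (-2.18) or Ogg1-/- replicate 2. Slc25a48 had no read in Ogg1-/- and 4.38, 11.1 and 7.76 in WT, but 81.5% of its window is masked as repeat.

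The higher peaks in Ogg1-/- were at 1700049E22Rik and Cd22. At 1700049E22Rik the WT libraries had 0, 2.21 and 0.862 normalized reads, the Ogg1-/- libraries 5.95, 17.8 and 16.4 and the DKO libraries 13.1, 5.82 and 20.9. Both knockouts were above WT, with log2 fold changes of 2.86 ± 0.92 (SE) and 2.82 ± 0.92. The Mutyh-/- libraries had 0, 6.64 and 17.0 and overlapped WT (1.51 ± 0.92). There limma made no call, while the unadjusted edgeR p was 0.00661. The calls for Ogg1-/- and DKO were kept under each of their 17 alternatives. Cd22, an inhibitory receptor of B cells and microglia, had 4.38, 0 and 0.862 in WT and 6.94, 13.6 and 8.22 in Ogg1-/- (2.25 ± 1.01). It was not called without WT replicate 2 (1.69), WT replicate 3 (2.14) or Ogg1-/- replicate 2 (1.99).

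In DKO the smallest p among the lower peaks was at Erfl, a gene named for its likeness to the ETS repressor Erf. It had 12.0, 13.3 and 7.76 normalized reads in WT and 0, 0.969 and 0 in DKO (-3.23 ± 0.97, SE). The single knockouts had 2.03, 8.85 and 12.0 in Mutyh-/- and 1.98, 11.5 and 5.14 in Ogg1-/-, and both overlapped WT. Gal3st4, a galactose sulfotransferase, had 12.0, 4.43 and 11.2 in WT and no read in DKO, and its WT mean was 3.22 times a floor of 3 reads per library. Casq2, a calcium store protein of heart muscle, had 8.76, 3.32 and 15.5 in WT and 0, 0 and 0.802 in DKO (-2.86 ± 1.02). The calls at Erfl, Gal3st4 and Casq2 were kept under each alternative run for them. Wfdc1 (-2.50 ± 0.98) and Nkd1, a Wnt antagonist (-2.37 ± 1.01), were the other 2 named. Wfdc1 was not called without DKO replicate 1 (-2.04) or DKO replicate 3 (-2.04), nor Nkd1 without WT replicate 3 (-2.17) or DKO replicate 2 (-1.87).

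The higher peaks in DKO, besides 1700049E22Rik, were at Lhx3, Sox6, Cldn6 and Or2ag2. Lhx3, a LIM homeodomain factor of motor neurons and pituitary, had 3.29, 1.11 and 10.3 normalized reads in WT and 15.3, 19.4 and 13.6 in DKO (1.86 ± 0.77, SE). Sox6, a SOX factor expressed in some interneurons and in glial precursors, had 1.10, 1.11 and 6.03 in WT and 12.0, 11.6 and 12.0 in DKO (2.04 ± 0.97). Cldn6, a tight junction protein, had 2.19, 5.54 and 0 in WT and 6.56, 17.4 and 9.63 in DKO (2.05 ± 0.97). Or2ag2, an olfactory receptor, had no read in WT and 4.37, 1.94 and 4.01 in DKO, and its DKO mean was 1.12 times the floor of 3 reads per library. Its unadjusted edgeR p was 0.0395 in Mutyh-/- and 0.0156 in Ogg1-/-, where limma made no call. All DKO libraries lay above all WT libraries at these genes. The calls at Cldn6 and Sox6 were lost with edgeR. Lhx3 was not called without WT replicate 2 (1.28) or DKO replicate 2 (1.72), and Cldn6 not without WT replicate 3 (1.32), DKO replicate 2 (1.70) or DKO replicate 3 (2.10). Sox6 lost its call without any 1 of WT replicates 1 and 2 or of the DKO libraries (1.74 to 2.05), and Or2ag2 without any 1 of the WT libraries or of DKO replicates 1 and 3 (1.94 to 2.10).

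**Figure D5:**
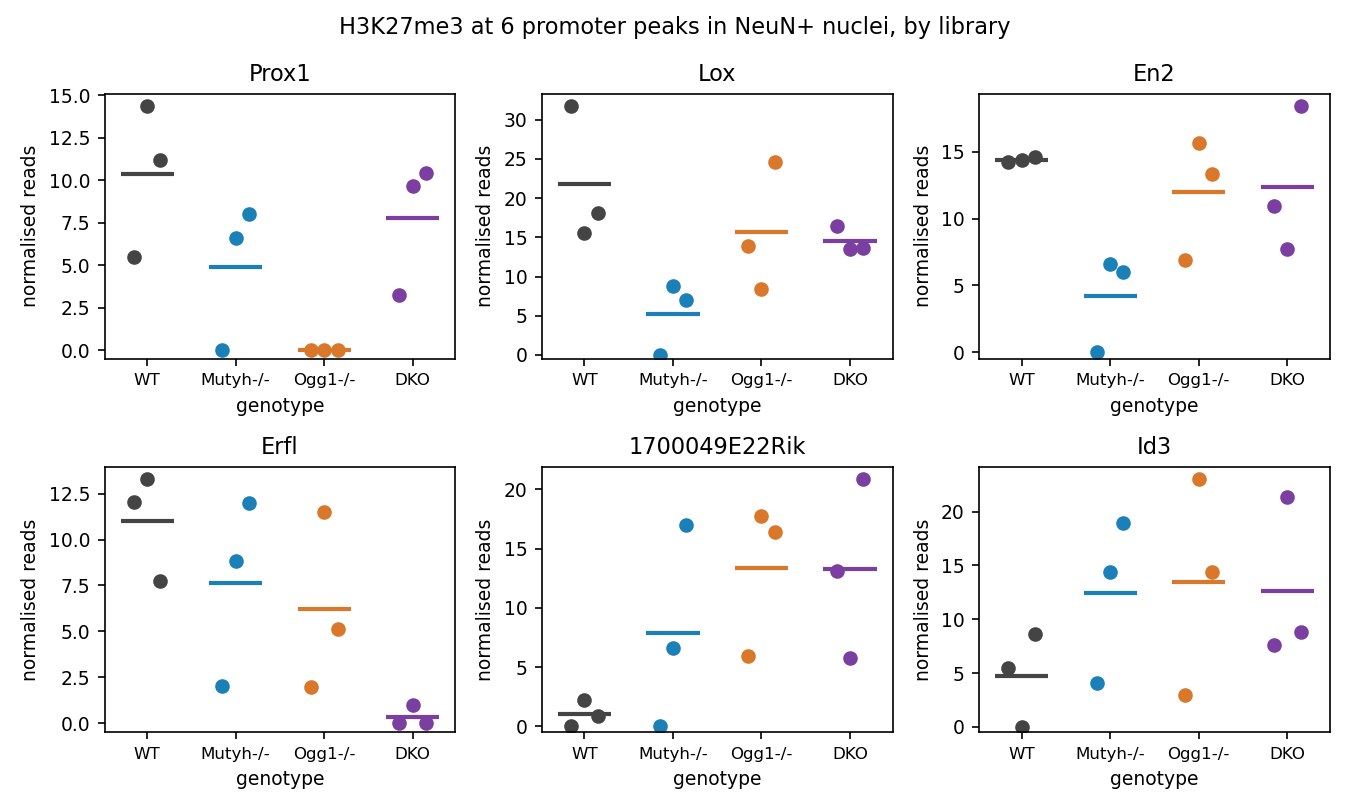
H3K27me3 in normalized reads at 6 promoter peaks of NeuN+ nuclei, with a point for each of the 3 libraries of a genotype and a bar at their mean. At Prox1 the 3 Ogg1-/- libraries are at 0, at Erfl the DKO libraries lie between 0 and 0.969, and at 1700049E22Rik the Ogg1-/- and DKO libraries lie above all WT libraries.

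Calls in more than 1 knockout were counted for members only. No like count was made over all peaks, and the knockouts share the WT libraries. The overlap therefore does not set promoter peaks apart from other peaks. DERs were found at 101 promoter peaks in at least 1 knockout, at 5 in at least 2 and at 1 in all 3. The last was at Id3, an inhibitor of basic helix-loop-helix factors in development. It had 5.48, 0 and 8.62 normalized reads in WT, 4.06, 14.4 and 19.0 in Mutyh-/-, 2.97, 23.0 and 14.4 in Ogg1-/- and 7.65, 21.3 and 8.82 in DKO. All 3 knockouts overlapped WT. The log2 fold changes were 1.55 ± 0.77 (SE), 1.52 ± 0.77 and 1.64 ± 0.77, against the same WT libraries. Each of the 3 calls was lost with a pseudocount of 5 and without WT replicate 2 (0.55, 0.53 and 0.65), and without 1 or 2 of the knockout's own libraries.

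By list, DERs are set beside the 3.8%, 3.73% and 3.1% of all 4132 peaks called in Mutyh-/-, Ogg1-/- and DKO. At such shares a list of 8 to 19 peaks can hold 0 DERs without differing from the table. Of the 118 promoter peaks at developmental transcription factors, 0, 1 and 1 were higher and 6, 4 and 3 lower in Mutyh-/-, Ogg1-/- and DKO. Their median log2 fold changes were -0.38, -0.31 and -0.10, near the -0.30, -0.25 and -0.09 of all promoter peaks. The 16 peaks at Wnt genes had 0 DERs in each knockout and medians of -0.62, -0.30 and -0.36, and the 16 at BMP, FGF and Hedgehog genes had 1 DER, the lower peak of Fgf3 in Mutyh-/- (-1.57 ± 0.69, SE). The 19 peaks at transmitter and interneuron genes had 0 DERs and medians of 0.01, -0.22 and -0.08. The 8 peaks at axon guidance genes had 0 DERs as well, with medians of 0.72, 0.34 and 0.63. Other DERs on the lists were Hoxa2 (-1.57 ± 0.74, SE) and 1 vascular peak, both lower in Mutyh-/-, Grin2d in Ogg1-/- (14.2, 13.3 and 14.6 in WT against 0, 5.23 and 14.4) and Prox1. Oaf and Wnt6 were not called in any knockout. DERs were spread over the CpG classes, with 2.63% to 6.16% of a class in Mutyh-/-, 0.858% to 4.20% in Ogg1-/- and 1.29% to 4.14% in DKO.

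A non-additive effect in the DKO was tested as DKO minus Ogg1-/- minus Mutyh-/- plus WT. At an unadjusted limma p under 0.05 there were 38 promoter peaks (3.47%, against 3.82% of all peaks), 34 positive and 4 negative, and 0 after adjustment (smallest adjusted p 0.99; edgeR and DESeq2 also 0, with 31 and 48 at an unadjusted p under 0.05). Among the other peaks 84 were positive and 36 negative. A positive value means that the DKO lay above the sum of both single knockout effects. Of the members named here, the largest was at Prox1 (4.39 ± 1.44, SE), followed by Hs3st2 (3.85 ± 1.40). Both were named for low values in a single knockout, which this contrast subtracts. A positive value was therefore partly set by the naming rule and is no separate result. TMM factors in limma gave 49 peaks with 71.4% positive in place of 89.5%, and edgeR 58.1%. Without replicate 1 of all genotypes there were 49 with 69.4% positive.

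Other readouts at the promoter peaks named by the rule were looked up in tables fitted whole. The named windows overlapped 18 H3K4me3 peaks, 21 Suz12 peaks and 19 NeuN- H3K27me3 peaks. Over the 3 knockouts H3K4me3 gave 0 DERs there in limma, where 0.863%, 0.934% and 1.2% of that table were called. Suz12 gave 1 DER in Mutyh-/- and 1 in Ogg1-/- and none in DKO, against 4.9%, 3.61% and 2.06% of that table. Both were at the pile-up locus Aida, where WT had 88.5, 77.2 and 0 normalized reads, and both were lost without WT replicate 3, as was the call given next. NeuN- H3K27me3 gave 1 DER, in Ogg1-/-, against 1.88%, 4.24% and 2.12% of that table. It was at Wnt6, with 1.32, 0.829 and 0 in WT and 10.5, 7.35 and 4.77 in Ogg1-/- (2.34 on the log2 scale), while the NeuN+ peak of Wnt6 had 5.48, 6.64 and 4.31 in WT and 2.97, 0 and 4.11 in Ogg1-/-. At Lox, whose H3K27me3 was called lower in Mutyh-/-, Suz12 had 6.70, 14.9 and 25.5 in WT and 0.82, 12.4 and 4.06 in Mutyh-/-, which was not called. At Id3, H3K4me3 had 5.15, 0 and 0 in WT and 4.51, 8.85 and 12.1 in DKO, also not called. Over the 3 readouts together edgeR gave 4 DERs and DESeq2 3, against 3 in limma.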

How the data were processed

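Deposited tables of consensus peaks, 6 in number (H3K27me3, H3K4me3 and Suz12 in NeuN+ and NeuN- nuclei, 12 libraries each), were used, with columns mapped by genotype and replicate. Input libraries were not analysed here. Single-end reads had been mapped to the mm10 (GRCm38) genome by the authors using Bowtie2 (2.3.5.1), who called regions with epic2, kept consensus peaks, counted reads over 401-bp windows with DiffBind (3.10.1) and annotated them with ChIPseeker (1.36); handling of duplicates and blacklisted regions was not given in the sources used here. The deposited values are signal, namely reads divided by 1 factor per library. All values (100%) were whole multiples of 1 step within 0.01, so whole reads were recovered.

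The main test was limma (3.58.1, R 4.3.3), trend and robust empirical Bayes, on log2(value + 1) of all peaks of a table, 12 libraries per fit, genotype only. Fold changes on this scale understate changes at low peaks. edgeR (4.0.16) and DESeq2 (1.42.0) on recovered reads, other scalings, pseudocounts, filters, a replicate block and leaving out libraries were alternatives. The fit was tested on simulated data. GC, CpG and masked bases come from the RefSeq GRCm38.p6 sequence. Replicates are samples of pooled animals.

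Peaks were named by rule: the 10 highest in WT outside repeats, up to 5 DERs per direction and knockout with the smallest p and no overlap with WT, up to 3 genes per list, genes the study discusses, genes with most peaks and DERs shared by 3 knockouts. One of the gene lists is not reported here. Members and lists were chosen with earlier results of these data known, and regions were called in the libraries compared here.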

Additional observations from a re-analysis of the deposited data

How the results depend on the processing

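The higher level of promoter peaks kept its direction and its exact permutation p under 0.05 in each alternative run (0.36 to 0.64 on the log2 scale; 0.55 to 0.60 when single libraries were left out). Counts of promoter DERs moved more. With a replicate block they were 65 in Mutyh-/-, 53 in DKO and 65 for the non-additive contrast, and 48 in Ogg1-/-. In a check of pairing, same-numbered WT and knockout libraries correlated at -0.0744 to 0.0918 over promoter peaks. In it 0 to 2 of 3 WT libraries correlated best with their own number. These correlations do not describe the levels themselves, since the top CpG class exceeded the bottom class in 12 of 12 libraries. They come from sparse values and cannot settle whether the numbers pair the samples. Replicate 3 had the highest promoter median in WT (8.62), Mutyh-/- (8.99), Ogg1-/- (10.3) and DKO (10.4). Replicate 1 had the highest repeat share in each (17.3%, 56.9%, 26.6% and 37.6%). What lay behind this shared order was not tested. edgeR gave 17 DERs in DKO, and leaving out peaks with mean reads under 5 gave 25 non-additive peaks among 823 members tested. Leaving out single libraries gave 29 to 84 DERs in Mutyh-/-, 27 to 86 in Ogg1-/-, 19 to 66 in DKO and 24 to 74 non-additive peaks, the highest without replicate 3 of a knockout (Ogg1-/- for the last) and the lowest without DKO replicate 2 for DKO and without WT replicate 3 for Mutyh-/- and the non-additive contrast. The difference of promoter and other peaks ranged from -0.22 to 0.02 in Mutyh-/- (0.016 without Mutyh-/- replicate 1), -0.29 to -0.07 in Ogg1-/- and -0.19 to -0.07 in DKO, and that of the share of reads from -9.48 to 3.25, -5.62 to 1.62 and -7.46 to 0.21 percentage points, with the highest value in each case without replicate 1 of that knockout. Without replicate 1 of all genotypes the share in Mutyh-/- was 1.18 points higher than in WT. DERs of other marks at named promoters numbered 3, and 5 with non-robust empirical Bayes, 8 with TMM factors, 10 with a replicate block, 6 with the libraries of the contrast alone, 7 without replicate 1 of all genotypes and 0 to 9 when single libraries were left out. The causes were not tested. Of 26 named DERs, 8 kept their call in each alternative, 14 lost it without at least 1 library and 3 with edgeR. Direction changed at 0 of them, but all except the 3 at Id3 were named for complete separation from WT. Leaving out a library cannot reverse such a peak, so the kept direction is no separate result. With a median of 3 to 13 reads per promoter peak, moderate changes at single peaks were not detectable.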
